A study of Mus musculus with 18 samples.

Results

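Immediate early genes are the first genes that a cell transcribes after a growth factor, stress or injury, because the factors that switch them on are already present and need no new protein. The 10 genes followed here in liver tumours are Fos, Fosb, Jun and Junb, subunits of the AP-1 transcription factor, Atf3, a related stress-induced bZIP factor, Egr1 and Klf6, zinc finger transcription factors, Ier2 and Ier3, early response proteins, and Myc, the growth-promoting transcription factor. The members were the rows of the deposited table whose symbol is one of these names, 10 of 54838 genes, each found once.

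The table held 18 samples from C57BL/6 mice aged 36 weeks, in 6 groups of 3. WT mice and GKO mice, the latter a global knockout of the miR-181ab1 microRNA cluster in every tissue, gave normal livers without treatment. Mice of both genotypes that had received diethylnitrosamine (DEN, a liver carcinogen) once at 25 mg/kg by intraperitoneal injection on postnatal day 12 gave tumours and the non-tumour liver around them. Every group thus shared strain and age, and the tumour and non-tumour groups also shared the carcinogen. The labels tie no tumour to a non-tumour sample of 1 animal, and the sources used here do not say whether the sequenced tumours and non-tumours came from different animals. The p-values measure the spread between these samples, which may be technical in part. Levels are given as TPM (a level per gene length, scaled so that every sample has an equal total). Multiplying TPM by gene length gave back between 11925055 and 20751348 reads on genes per sample, with a median of 16973801.

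In liver these genes are known for the first hours after partial hepatectomy and other injury, when Fos, Jun and Myc rise before hepatocytes enter the cell cycle. AP-1 proteins work in pairs, a Fos protein joined to a Jun protein, and their genes are switched on through the MAP kinases and through factors such as SRF, ELK and CREB that are bound to their promoters. The messages are short-lived, and AU-rich elements in the 3′ UTR (the untranslated end of the message) take part in their decay.

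The deleted cluster encodes 2 microRNAs that share 1 seed, the stretch that pairs with target messages, shown in capitals (bases 2 to 8) in the mature sequences of RefSeq:
mmu-miR-181a-5p: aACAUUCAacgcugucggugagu
mmu-miR-181b-5p: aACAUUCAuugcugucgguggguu
The word that pairs with this seed, TGAATGT, stood in the annotated 3′ UTR of Fos once and of Klf6 2 times, one of the latter followed by an A (an 8mer). It was in no other member's 3′ UTR, while 15.1% of 20524 genes with an annotated 3′ UTR held it. The sites are shown with the word in capitals, on mm10:
Fos 3′ UTR site, word at chr12:85477058-85477064, plus strand: tcgaggtggtcTGAATGTtctgacattaa
Klf6 3′ UTR site, word at chr13:5867687-5867693, plus strand: aaaaagcagttTGAATGTtttgtgtgtga
Klf6 3′ UTR site, word at chr13:5870348-5870354, plus strand: atatttctgtaTGAATGTattttttattc
A matching word describes the sequence and does not show that the microRNA acts there. The hairpin genes themselves gave no check of the labels in these libraries: Mir181b-1 had 0 reads in all 18 samples, and Mir181a-1 had 1 read in GKO tumour 3 and 0 in the other 17.

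RefSeq start-site windows of 300 bases (250 before and 50 after the start) were matched for 7 of the 10 members. Egr1, Ier2 and Myc had no window. TGACG, the core of the cyclic AMP response element (CRE), was searched on both strands and stood in the windows of Fos, Fosb, Junb and Atf3, against 20.8% of 32851 windows of all genes. The whole CRE, TGACGTCA, which contains that core, was in none of the 7 and in 1.8% of all windows. The letters TATAAA were in the window of Fos at -33 to -28 from the start site, where a TATA box lies. In that of Junb they were at 1 to 6 from the RefSeq start, and 13.6% of all windows held them. The bases before that Junb start end at 84978749, upstream of the gene's 5′ end in GENCODE at 84978718. Counted from the latter, the Junb positions would lie further upstream. An EGR site (GCGNGGGCG) was in the window of Fosb and in 5.6% of all. The AP-1 site (TGANTCA) and the CArG box bound by SRF were in none of the 7, and in 7.8% and 1.6% of all windows. The 160 bases before the start site are shown for Fos and Junb, which both passed the test in the tumour comparison below, with the CRE core in capitals (GRCm38.p6):
Fos promoter, chr12:85473730-85473889, plus strand: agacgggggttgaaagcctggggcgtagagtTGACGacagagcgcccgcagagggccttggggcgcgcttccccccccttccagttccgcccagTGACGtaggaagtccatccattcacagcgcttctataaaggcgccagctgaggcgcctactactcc
Junb promoter, chr8:84978749-84978908, minus strand: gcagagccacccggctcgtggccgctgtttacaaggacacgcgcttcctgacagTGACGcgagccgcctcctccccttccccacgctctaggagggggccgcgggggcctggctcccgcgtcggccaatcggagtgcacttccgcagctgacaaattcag
In Fos the core lay at -129 to -125 and again at -66 to -62 from the start site, and in Junb at -106 to -102.

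WT non-tumour 2, WT tumour 3, GKO non-tumour 1 and GKO non-tumour 3 stood apart from their groups in the members. WT non-tumour 2 held the highest value of all 18 samples for Jun, Atf3, Klf6 and Myc. Its Atf3 was 29.3 times the mean of the other 2 WT non-tumours, its Myc 6.86 times, its Klf6 5.93 times and its Jun 4.03 times, whereas its Junb was 0.803 times and its Egr1 0.50 times theirs. It also differed from them over 11897 genes, with a Pearson r of 0.920 and 0.924 on log2(TPM + 1), against 0.967 between the other 2. Its summed level of the 12 macrophage markers was 228 TPM, against 469 and 691 in the other 2, and that of the 10 endothelial markers was 59.7 against 121 and 109. Its cholangiocyte markers (76.9 TPM against 48.4 and 36.4, of which 2.79 against 7.96 and 4.94 was not Spp1) and heat shock genes (1230 TPM against 788 and 1047) were the highest of the group, and its hepatocyte markers (78025 TPM against 97780 and 91769), neutrophil markers (2.43 against 13.1 and 29.4), B cell markers (6.38 against 45.0 and 18.2) and fibroblast markers (45.0 against 67.9 and 49.2) the lowest. T cell markers were between those of the other 2, at 6.24 TPM against 15.7 and 4.21. The part of these genes in the member levels of this sample was not tested. WT tumour 3 was the lowest of the WT tumours in 7 members, with Ier3 at 0.054 times and Fos at 0.152 times the mean of the other 2. WT tumours 1 and 2 were more alike (r of 0.982) than any other pair within a group, while WT tumour 3 had r of 0.910 and 0.911 with them. GKO non-tumour 1 was the highest of its group in 8 of the 10 members, with Jun at 4.10 times the mean of the other 2. Its macrophage markers summed to 1115.5 TPM, against 230 and 437 in the other 2, the highest sum of all 18 samples. Its heat shock genes were the highest of the group (1156 TPM against 876 and 781), and its hepatocyte markers the lowest (72411 TPM against 94253 and 76824). The part of these genes in its member levels was not tested. GKO non-tumour 3 was the lowest of its group in 7 members and of all 18 samples in Fos, Jun, Egr1 and Atf3, with Fos at 0.051 times and Egr1 at 0.224 times the mean of the other 2. GKO normal 1, WT tumour 2 and GKO tumour 2 were also each the highest of their group in 7 members. Their Fos was 4.01, 2.13 and 3.59 times the mean of the other 2. GKO normal 1 had the highest macrophage marker sum of the GKO normal livers (390 TPM against 171 and 170). Its heat shock sum was the highest as well (1424 TPM against 1161 and 892), and their part in its member levels was not tested. Counts of members between tumours and non-tumours are also given below without single samples that change them.

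**Figure D1:**
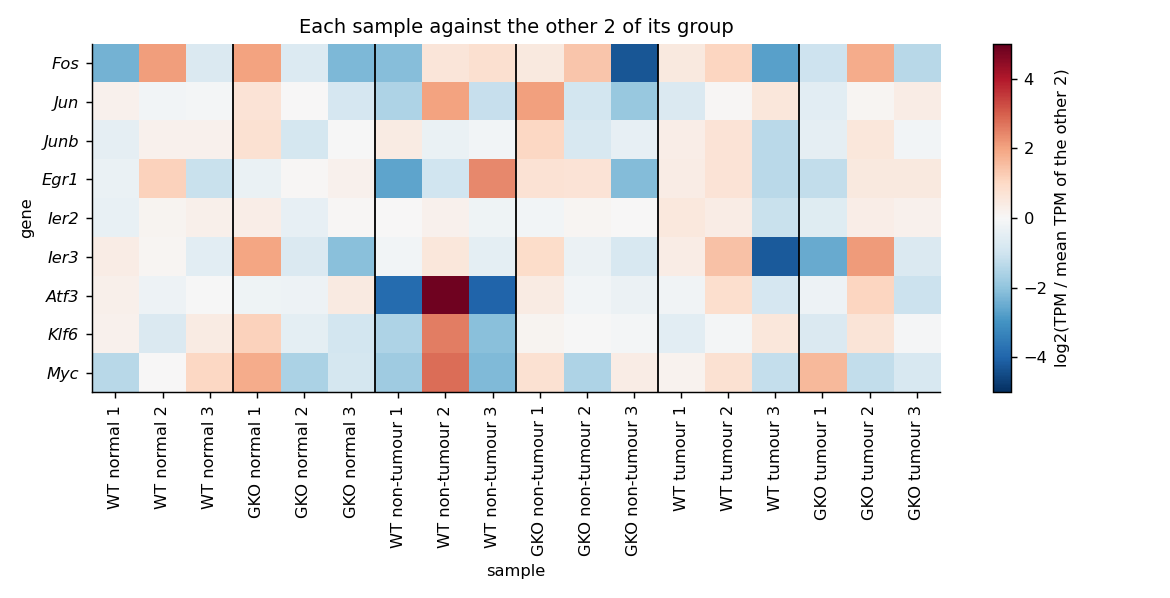
Each column is 1 of the 18 samples and each row 1 of the 9 members with enough reads; colour gives the log2 ratio of the sample's TPM to the mean TPM of the other 2 samples of its group, red above and blue below. WT non-tumour 2 is deep red for Atf3 (29.3 times the other 2) and red for Myc, Klf6 and Jun, and WT tumour 3 is blue for Ier3 and Fos.

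Egr1 had the largest difference between tumours and non-tumours of the 9 members tested. This early growth response factor, on the plus strand of chr18:34859823-34864984 (mm10), binds GC-rich promoters and is a direct target of the ERK pathway. It stood at 63.5, 72.5 and 26.8 TPM in the WT tumours and at 1.74, 4.64 and 16.8 TPM in the WT non-tumours. The GKO tumours had 51.5, 122 and 123 TPM, and the GKO non-tumours 2.73, 2.7 and 0.609 TPM. All 6 tumours lay above all 6 non-tumours, although the lowest WT tumour (26.8 TPM) was near the highest WT non-tumour (16.8 TPM). Normal livers lay below every tumour, at 3.15, 5.92 and 2.12 TPM in WT and 4.77, 5.76 and 6.16 TPM in GKO mice. Over both genotypes, with genotype in the model, the log2 fold change was 4.01 ± 0.53 (SE, n = 6 and 6, limma on log2(TPM + 1), Benjamini-Hochberg adjusted p over all 14106 genes tested 0.000476).

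Junb, an AP-1 subunit on chr8:84974484-84978718 (minus strand), was the second member whose 6 tumours all lay above all 6 non-tumours. Its levels were 203, 234 and 85.5 TPM in the WT tumours and 57.9, 41.6 and 45.7 TPM in the WT non-tumours. In GKO mice they were 122, 196 and 143 TPM in the tumours and 82.0, 35.9 and 44.5 TPM in the non-tumours. The lowest tumour, WT tumour 3, was only just above the highest non-tumour, GKO non-tumour 1. Normal livers had 44.8, 60.8 and 61.0 TPM (WT) and 98.9, 46.6 and 71.0 TPM (GKO), so that GKO normal liver 1 was above WT tumour 3. The log2 fold change over both genotypes was 1.63 ± 0.28 (SE, n = 6 and 6, limma, adjusted p = 0.00202). The 3′ end of Junb overlaps Prdx2 on the other strand, and the sources used here do not say whether reads were counted by strand.

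Ier2, an immediate early response protein encoded on chr8:84661331-84662852, was the most abundant member, with a mean of 107 TPM over the 18 samples. It was measured at 189, 177 and 84.9 TPM in the WT tumours, against 67.1, 73.4 and 60.5 TPM in the WT non-tumours. The GKO tumours had 119, 184 and 176 TPM and the GKO non-tumours 74.5, 83.3 and 80.4 TPM. Tumours and non-tumours did not overlap, but WT tumour 3 exceeded the highest non-tumour by little. Normal livers lay at 69.7, 89.1 and 93.5 TPM (WT) and 115, 81.1 and 103 TPM (GKO) and overlapped both the non-tumours and the lowest tumour. The log2 fold change of tumours over non-tumours was 1.02 ± 0.21 (SE, n = 6 and 6, limma, adjusted p = 0.00548).

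Fos, the founding AP-1 subunit on chr12:85473890-85477273 (plus strand), was much scarcer than Junb in every sample. In the tumours it reached 5.35, 6.68 and 0.915 TPM (WT) and 4.0, 13.2 and 3.32 TPM (GKO). Non-tumours had 0.259, 1.09 and 1.17 TPM (WT) and 0.869, 1.19 and 0.0527 TPM (GKO), the last of which was 1 read. WT tumour 3, at 19 reads, lay among the non-tumours, and the other 5 tumours lay above all of them. The normal livers, at 0.188, 1.44 and 0.489 TPM (WT) and 2.81, 1.00 and 0.400 TPM (GKO), spread as widely as the non-tumours. Fos passed the test over both genotypes, with a log2 fold change of 1.70 ± 0.40 (SE, n = 6 and 6, limma, adjusted p = 0.0117). Fosb, its close relative on chr7:19302696-19310051, had 0 to 19 reads in a sample and at most 0.371 TPM, was under the limit of 0.5 TPM on the mean and was not tested; its 3 GKO tumours, at 0.329, 0.333 and 0.156 TPM, were above the 3 GKO non-tumours, at 0.0818, 0.0409 and 0.0397 TPM.

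**Figure D2:**
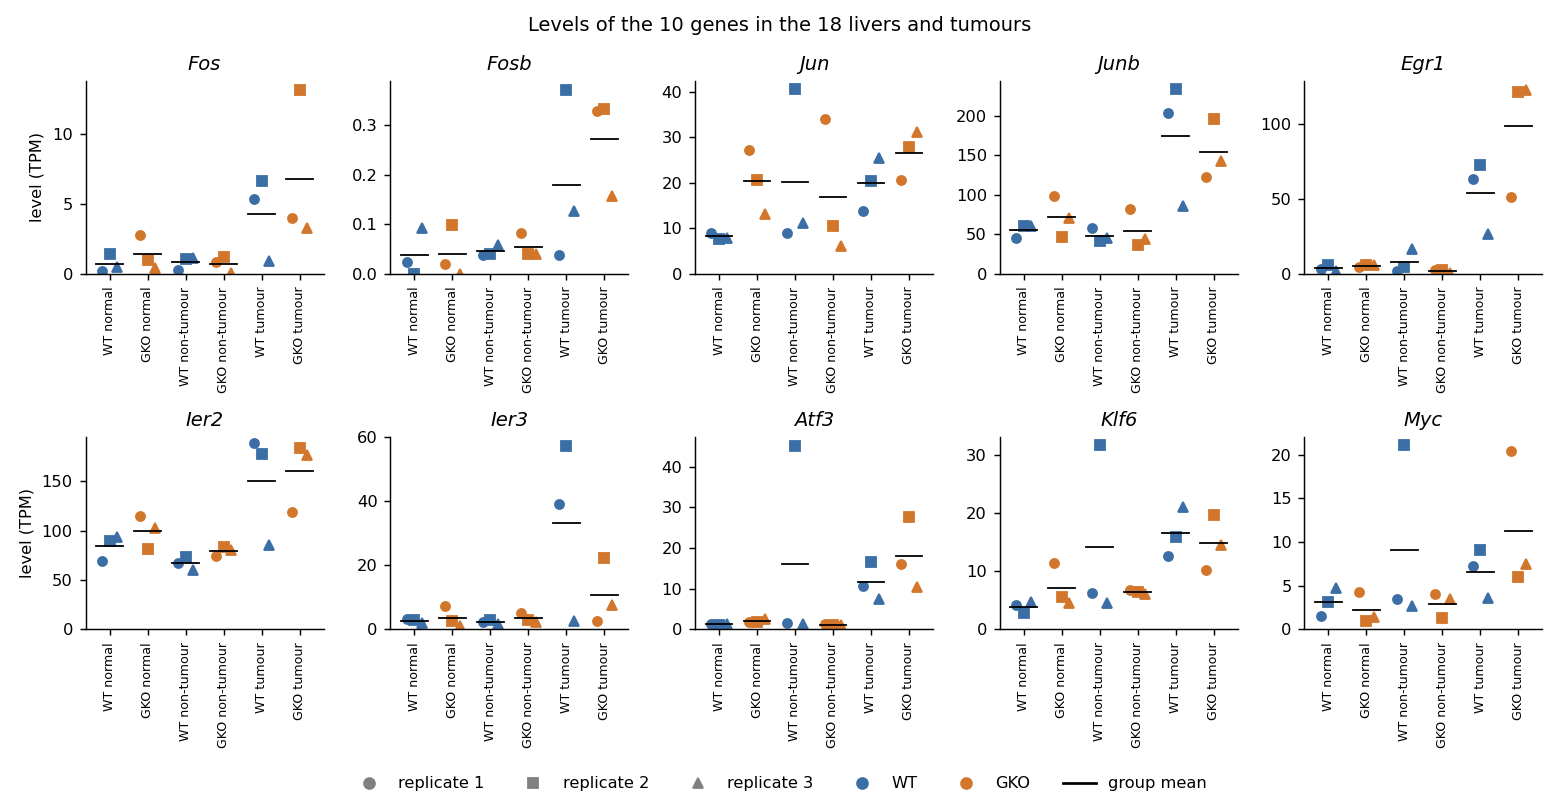
Level in TPM (vertical axes, each from 0) of each gene in the 6 groups; points are single samples, the symbol shows the replicate number, the colour the genotype, and the black line is the mean of the 3 samples. Egr1, Junb and Ier2 have all 6 tumours above all 6 non-tumours, and WT non-tumour 2 (square) is far above the other WT non-tumours in Jun, Atf3, Klf6 and Myc.

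The comparison of tumours with non-tumours asks which genes are altered in the tumour itself. Over both genotypes 4 of the 9 members tested rose (Fos, Junb, Egr1 and Ier2) and 0 fell, where 12.2% of all genes tested were called higher and 7.87% lower. Groups did not overlap, with the tumours higher, in 3 members and in 4.76% of all genes. The median log2 fold change of the 9 was 1.63, against 0.08 over all genes. Leaving out WT non-tumour 2 raised the count from 4 to 7, adding Atf3, Klf6 and Myc, while the share of all genes called in either direction went from 20.1% to 26.9%. Without any other single sample the count was 4 or 5. Median centring of the samples, which shifted the fold changes of all genes down, changed the share of called genes that were higher from 60.8% to 44.5% and left the 4 members called.

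Atf3, a repressor induced by stress and the unfolded protein response, was the member that WT non-tumour 2 moved most. It is on chr1:191170296-191218039 (minus strand) and was at 10.7, 16.6 and 7.57 TPM in the WT tumours and 16.1, 27.6 and 10.4 TPM in the GKO tumours. Of the non-tumours, WT samples had 1.64, 45.2 and 1.44 TPM and GKO samples 1.42, 1.13 and 1.04 TPM. Thus 5 of 6 non-tumours were at or under 1.64 TPM and every tumour at or above 7.57 TPM, with WT non-tumour 2 above all tumours. The normal livers had 1.44, 1.15 and 1.29 TPM (WT) and 1.87, 1.84 and 2.56 TPM (GKO). With all samples the log2 fold change over both genotypes was 1.94 and did not pass (limma, adjusted p = 0.0636). It passed with all 18 samples in 1 fit (limma, adjusted p = 0.0148), and was also called with a replicate block and with a pseudocount of 0.1. When WT non-tumour 2 was left out it was 2.68 ± 0.27 (SE, n = 6 and 5, adjusted p = 8.998e-05).

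Klf6, a Krüppel-like factor on chr13:5861482-5870394, and Myc, on chr15:61985391-61990374, were also highest in WT non-tumour 2. Klf6 was at 12.6, 15.9 and 21.1 TPM in the WT tumours and 10.3, 19.6 and 14.5 TPM in the GKO tumours. Its non-tumours had 6.24, 31.7 and 4.46 TPM in WT and 6.81, 6.37 and 6.07 TPM in GKO mice, a narrow GKO range beside a wide WT one. Normal livers held 4.26, 2.74 and 4.67 TPM (WT) and 11.4, 5.59 and 4.50 TPM (GKO). With all samples its log2 fold change over both genotypes was 0.85 (limma, adjusted p = 0.121). Without WT non-tumour 2 it was 1.23 ± 0.19 (SE, n = 6 and 5, limma, adjusted p = 0.00135).

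Myc drives ribosome synthesis and the cell cycle and is often amplified in liver cancer. It measured 7.21, 9.05 and 3.59 TPM in the WT tumours and 20.4, 5.94 and 7.49 TPM in the GKO tumours. In the non-tumours it was at 3.49, 21.05 and 2.64 TPM (WT) and 4.0, 1.27 and 3.42 TPM (GKO), and WT non-tumour 2 was the highest of all 18 samples. WT normal livers had 1.52, 3.15 and 4.72 TPM and GKO normal livers 4.28, 0.959 and 1.43 TPM, which overlapped the remaining non-tumours. With all samples the log2 fold change over both genotypes was 0.79 (limma, adjusted p = 0.281), and without WT non-tumour 2 it was 1.23 ± 0.35 (SE, n = 6 and 5, adjusted p = 0.0232).

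Jun and Ier3 did not pass the test over both genotypes with or without WT non-tumour 2. Jun, the AP-1 partner of Fos on chr4:95049034-95052222 (minus strand), was at 13.9, 20.3 and 25.4 TPM in the WT tumours and 20.5, 27.8 and 31.1 TPM in the GKO tumours. Non-tumours ranged more widely, with 8.97, 40.6 and 11.2 TPM in WT and 34.1, 10.6 and 6.07 TPM in GKO mice, so 1 sample of each genotype exceeded every tumour. An antisense gene, Junos, overlaps Jun, and reads of the 2 cannot be told apart without strand.

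Ier3, an apoptosis-related early response protein on chr17:35821684-35822923, was the member that varied most among tumours. It had 39.1, 57.3 and 2.60 TPM in the WT tumours and 2.58, 22.4 and 7.65 TPM in the GKO tumours. Non-tumours lay between 1.80 and 5.08 TPM and normal livers between 1.14 and 7.14 TPM. One tumour of each genotype was therefore at the level of non-tumour liver, and the log2 fold change over both genotypes was 1.85 (limma, adjusted p = 0.0671). Without WT tumour 3 it was 2.31 ± 0.58 and passed (SE, n = 5 and 6, limma, adjusted p = 0.0161). It also passed without GKO tumour 1 (2.23 ± 0.63, limma, adjusted p = 0.0341) and with all 18 samples in 1 fit (limma, adjusted p = 0.0287).

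Within GKO mice 6 of the 9 members tested rose in tumours and 0 fell, where 7.75% of all genes were called higher. Egr1 rose by a log2 fold change of 5.04 ± 0.46 (SE, n = 3 and 3, limma, adjusted p = 0.00407) and Atf3 by 3.02 ± 0.33 (adjusted p = 0.00506). Smaller rises were those of Fos (2.05 ± 0.49, adjusted p = 0.0392), Junb (1.55 ± 0.35, 0.0351), Klf6 (1.05 ± 0.26, 0.0417) and Ier2 (0.98 ± 0.25, 0.0453), all by limma. Myc had 3 tumours above all 3 non-tumours but missed the threshold (1.55 ± 0.48, limma adjusted p = 0.0775). Tumours lay above non-tumours without overlap in 8 members, Fosb included, against 25.7% of all genes tested. The calls of Fos, Junb, Klf6 and Ier2 were close to the threshold: without GKO non-tumour 2, GKO non-tumour 3 or GKO tumour 3 only Egr1 and Atf3 of the members were called, and without GKO tumour 2 these and Fos. Over all genes the share called in either direction was 11.7% with every sample and 4.39%, 1.62%, 5.34% and 9.34% without those samples in turn. Without GKO non-tumour 1 the members called were Jun, Junb, Egr1 and Atf3, with 11.1% of all genes, and Jun then had a log2 fold change of 1.58 ± 0.32 (SE, n = 3 and 2, limma, adjusted p = 0.0361) in place of 0.93 (adjusted p = 0.275). Median centring lowered the median log2 fold change of all genes from 0.20 to -0.04 and the share of called genes that were higher from 66.1% to 44.0%, and called 3 members (Junb, Egr1 and Atf3). With a replicate block 4 members were called (Fos, Egr1, Atf3 and Myc), with 10.2% of all genes, so that Junb, Klf6 and Ier2 lost their calls. Fos depended on how its low values were handled, with 3.31 at a pseudocount of 0.1 (limma, adjusted p = 0.0512) and 3.41 by voom on the recovered reads (adjusted p = 0.0743).

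Within WT mice 0 of the 9 members passed in tumours against non-tumours by limma, where 4.23% of all genes did. At an unadjusted p under 0.05 there were 5 (Fos, Junb, Egr1, Ier2 and Ier3), and limma's voom on the recovered reads also called 0. Tumours lay above non-tumours without overlap in Junb, Egr1 and Ier2, and in 11.0% of all genes. Their log2 fold changes were 2.97 ± 0.71 for Egr1 (SE, n = 3 and 3, limma, adjusted p = 0.0735), 1.72 ± 0.41 for Junb (0.0719) and 1.07 ± 0.34 for Ier2 (0.153). The count depended on single samples: it was 5 without WT tumour 3 (Fos, Junb, Egr1, Ier2 and Ier3), 2 without WT non-tumour 2 (Atf3 and Klf6) and 1 without WT non-tumour 3 (Egr1). The share of all genes called was then 9.68%, 6.00% and 1.53%. The difference between the genotypes in this contrast was tested as an interaction, and 0 of 9 members passed by limma, with 0.0142% of all genes called. Only Egr1 was under 0.05 before adjustment, with a GKO effect larger by 2.08 ± 0.92 on the log2 scale (SE, n = 3 in each of 4 groups, limma, adjusted p = 0.475), and voom called 0.

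**Figure D3:**
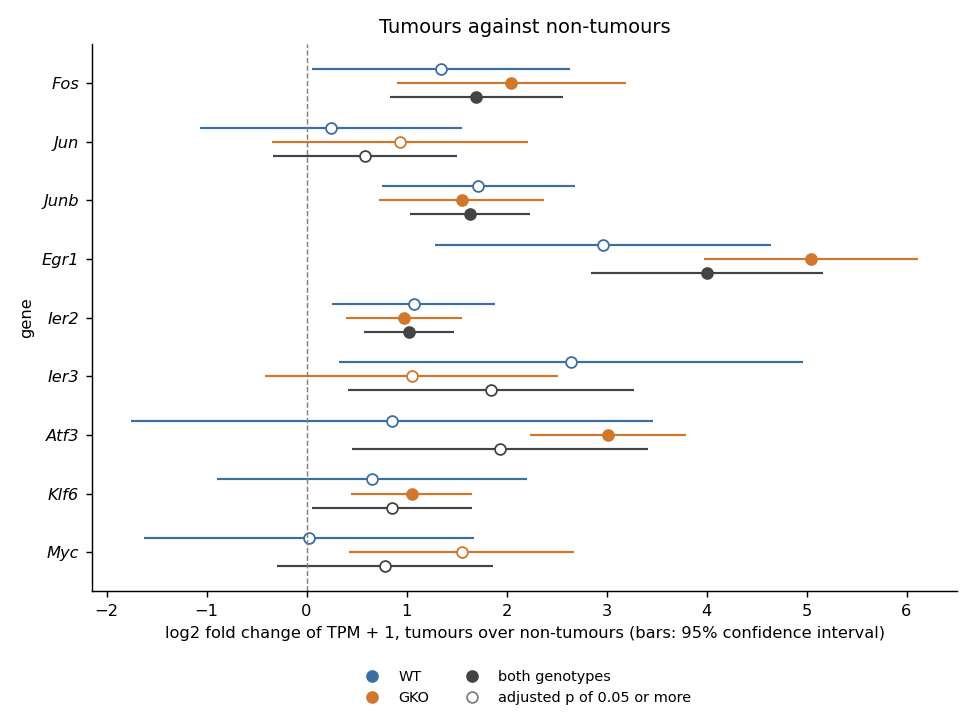
Log2 fold change of TPM + 1 of tumours over non-tumours (horizontal axis) for the 9 members tested, in WT mice, GKO mice and both; bars are 95% confidence intervals of limma and filled points have an adjusted p under 0.05. Egr1 is farthest to the right in all 3 (2.97, 5.04 and 4.01), and the WT intervals of Atf3, Klf6 and Myc are wide and span 0.

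The comparison of GKO with WT tumours asks whether the members differ between tumours without and with miR-181ab1. The paper reports smaller tumours with fewer proliferating cells in GKO mice. An effect of genotype on the members cannot be told apart from those differences here. None of the 9 tested passed by limma, none was under 0.05 before adjustment, and voom called 0, where 0.0215% of all genes (3 of 13964) passed. Without WT tumour 3, 147 genes (1.05%) were called, and with all 18 samples in 1 fit 107 (0.766%), with 0 members in both. Log2 fold changes ran from -1.18 for Ier3 to 0.87 for Egr1, and adjusted p-values from 0.647 to 0.966. The 95% confidence intervals were wide, from -0.97 to 2.11 for Fos, -0.29 to 2.02 for Egr1, -0.58 to 1.74 for Myc and -3.86 to 1.50 for Ier3. Klf6, which holds 2 seed-matched sites, had an interval of -0.87 to 0.54, and Fos, whose interval is given above, holds 1. Per the paper, the deleted cluster gives most of the mature miR-181 in human liver cancer. Action of the microRNAs at these sites was not tested. Without WT tumour 3 the value of Ier3 was -2.43 ± 0.75 (limma, adjusted p = 0.188), and without GKO tumour 1 it was -0.52 ± 1.23 (limma, adjusted p = 0.923). That of Egr1 was 0.43 ± 0.42 and 1.28 ± 0.46 without these samples in turn, and that of Myc 0.25 ± 0.49 and 0.09 ± 0.38. Of the 12 clock genes, 6 were higher and 2 lower in GKO tumours without overlap, as were 9.88% and 4.78% of all genes, with a median log2 fold change of 0.89 against 0.09 over all genes. The most abundant, Dbp, was at 193, 120 and 256 TPM in GKO and 42.4, 42.4 and 87.8 TPM in WT tumours, and none of the 12 passed (limma, Dbp adjusted p = 0.369). Fibroblast and stellate cell markers had a median of 0.86, with 3 of 10 higher without overlap (Col1a1, Col3a1 and Pdgfrb). Cholangiocyte markers had a median of 1.37, with 2 of 4 higher without overlap. None of the 4 neutrophil or 4 B cell markers tested was above 0, with medians of -0.58 and -0.56. The part of these genes in the members' values was not tested. With 3 samples a group these data do not show that the genotypes are alike.

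Outside tumours GKO and WT livers also gave 0 called members. In non-tumours limma called 0% of all genes and voom called 0, with 799 genes and 0 members under 0.05 before adjustment. Ier2 was higher and Atf3 lower in GKO non-tumours without overlap, as 13.2% of all genes were without overlap in either direction. Ier2 had 74.5 to 83.3 TPM in GKO and 60.5 to 73.4 TPM in WT non-tumours, a log2 difference of 0.24 ± 0.20 (SE, n = 3 and 3, limma, adjusted p = 0.652). That of Atf3 was -1.61 ± 1.07 (limma, adjusted p = 0.644), and without WT non-tumour 2 it was -0.21 ± 0.18 (limma, adjusted p = 0.944), so most of it came from 1 sample.

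In normal livers, which had seen no carcinogen, limma again called 0% of all genes and voom 0, with 519 genes under 0.05 before adjustment. Jun was the member under 0.05 before adjustment. It stood at 27.2, 20.5 and 13.2 TPM in the GKO normal livers and at 9.05, 7.73 and 7.81 TPM in the WT ones, so that the lowest GKO value exceeded the highest WT value. The log2 fold change was 1.16 ± 0.26 (SE, n = 3 and 3, limma, adjusted p = 0.878). Atf3 was also higher without overlap, by 0.43 ± 0.19 (limma, adjusted p = 0.999), and 6.23% of all genes were. In the same livers all 10 fibroblast and stellate cell markers tested had a log2 fold change above 0, 7 of them without overlap, with summed levels of 91.4, 92.6 and 66.0 TPM in GKO and 43.2, 39.9 and 48.6 TPM in WT mice. The 10 endothelial markers summed to 130, 108 and 87.4 TPM in GKO and 61.7, 61.4 and 60.6 TPM in WT livers. Cholangiocyte markers summed to 92.4, 84.6 and 86.7 TPM in GKO and 41.4, 34.0 and 50.9 TPM in WT livers, most of it Spp1, and without Spp1 the sums of 10.6, 15.6 and 8.92 TPM overlapped the 6.06 to 10.6 TPM in WT livers. Of the 10 heat shock genes, 9 had a log2 fold change above 0, with a median of 0.54 against 0.06 over all genes, and their sums overlapped. The part of these cells and of the heat shock genes in the Jun difference was not tested, and in bulk tissue more cells of a type and more RNA per cell cannot be told apart.

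**Figure D4:**
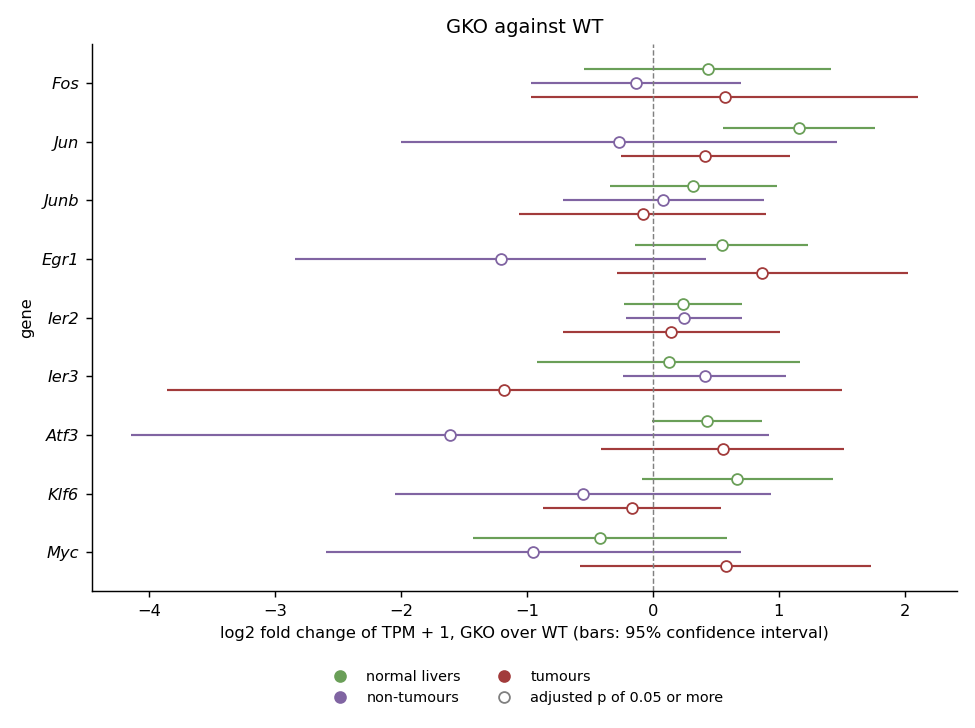
Log2 fold change of TPM + 1 of GKO over WT samples (horizontal axis) for the 9 members tested, in normal livers, non-tumours and tumours; bars are 95% confidence intervals of limma, and open points have an adjusted p of 0.05 or more. All points are open, and Jun in normal livers (1.16) is the one whose interval lies wholly above 0.

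The comparison of non-tumours with normal livers sets DEN-treated livers that bore tumours against untreated livers. A lasting effect of the carcinogen and an effect of nearby tumours cannot be told apart in it. In WT mice 0 of 9 members passed by limma (none under 0.05 before adjustment, voom 0), with 0.00744% of all genes called. The median log2 fold change was 0.54, against 0.32 over all genes, and median centring moved the latter to -0.05. Atf3 was higher in all 3 WT non-tumours without overlap, as were 31.0% of all genes, but outside WT non-tumour 2 the groups nearly met, at 1.44 TPM (26 reads) and 1.44 TPM (21 reads). Its log2 fold change was 1.54 ± 1.06 (SE, n = 3 and 3, limma, adjusted p = 0.370), and 0.15 ± 0.18 without that sample (limma, adjusted p = 0.631). Of 11 macrophage markers tested in this contrast, 10 were above 0 and 5 higher without overlap, with a median of 1.06. Fibroblast and stellate cell markers had 8 of 10 above 0 and 4 higher without overlap, with a median of 0.44. The part of these cells in the Atf3 value was not tested.

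In GKO mice 0 of 9 members passed between non-tumours and normal livers by limma (0% of all genes, 703 under 0.05 before adjustment, voom 0). Egr1 and Atf3 were lower in the non-tumours without overlap, as were 1.60% of all genes. Egr1 went from 4.77, 5.76 and 6.16 TPM in GKO normal livers to 2.73, 2.7 and 0.609 TPM in GKO non-tumours, a log2 fold change of -1.22 ± 0.34 (SE, n = 3 and 3, limma, adjusted p = 0.796). Atf3 had a log2 fold change of -0.49 ± 0.20 (limma, adjusted p = 0.952). Both were under 0.05 before adjustment. In the same contrast all 11 macrophage markers tested were above 0, with a median log2 fold change of 1.01 against 0.08 over all genes. Of 7 T cell markers, 6 were above 0, 4 of them without overlap, as were 7.12% of all genes. Heat shock genes had 1 of 10 above 0 (median -0.54), fibroblast markers 1 of 10 (-0.38) and cholangiocyte markers 0 of 5 (-0.65). The part of these genes in the Egr1 and Atf3 values was not tested. These GKO samples also enter the comparisons of tumours with non-tumours and of the genotypes, so the comparisons are not independent of each other.

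In the order of group means, GKO tumours came first for Fos, Fosb, Jun, Egr1, Ier2, Atf3 and Myc, and WT tumours for Junb, Ier3 and Klf6. Egr1 fell in this order from 98.7 ± 40.9 TPM (SD, n = 3) in GKO tumours and 54.3 ± 24.2 TPM in WT tumours, which overlapped, to 7.74 ± 8.01 TPM in WT non-tumours, which did not overlap with the tumours. For Junb the neighbours in the order that did not overlap were GKO tumours (154 ± 37.8 TPM) and GKO normal livers (72.2 ± 26.2 TPM). WT tumours, first for Junb, did overlap these livers, with WT tumour 3 at 85.5 TPM and GKO normal 1 at 98.9 TPM. Fos, Fosb, Jun, Ier3 and Myc had no pair of neighbours in the order that did not overlap. With any single sample left out, GKO tumours stayed first for Fosb, Jun and Egr1 and WT tumours for Ier3. First place of the other 6 members turned on 1 sample: without GKO tumour 2 WT tumours came first for Fos (4.31 against 3.66 TPM) and Ier2, and without GKO tumour 1 WT non-tumours came first for Myc (9.06 against 6.71 TPM). Jun was lowest in WT normal livers, at 8.20 ± 0.74 TPM, and between 16.9 and 26.5 TPM on average in the other 5 groups. Its non-tumour means rested on 1 sample each, and were 10.1 TPM without WT non-tumour 2 and 8.32 TPM without GKO non-tumour 1.

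AU-rich pentamers (ATTTA) stood in the 3′ UTR of 9 of the 10 members, Ier2 being the exception, against 62.1% of the 20524 genes with an annotated 3′ UTR. Klf6 held 7, Ier3 5, Fos and Jun 4 each and Atf3 3, and 32.4% of all genes held 3 or more. The longer nonamer TTATTTATT, which contains the pentamer, was found in Fos alone among the members and in 7.0% of all genes. Junb, Egr1 and Myc held 2 pentamers each and Fosb 1. Lengths of the 3′ UTR ran from 442 bases in Myc to 3111 in Klf6. The 4 members that passed over both genotypes held 4 (Fos), 2 (Junb), 2 (Egr1) and 0 (Ier2).

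Genes of the same pathways were examined through lists chosen with earlier results of these data known, in tumours against non-tumours over both genotypes. Among feedback inhibitors of the MAP kinases, which ERK signalling induces and which then damp it, 7 of 11 tested rose and 0 fell, where 12.2% of all genes were called higher, with a median log2 fold change of 0.95 against 0.08 over all genes. Dusp5, a nuclear ERK phosphatase, went from 1.03, 2.03 and 0.87 TPM in WT and 1.19, 0.981 and 0.502 TPM in GKO non-tumours to 23.6, 20.04 and 25.5 TPM in WT and 14.8, 35.5 and 16.8 TPM in GKO tumours. Its log2 fold change was 3.47 ± 0.22 (SE, n = 6 and 6, limma, adjusted p = 3.341e-06). Spry2 (1.46), Dusp4 (1.41) and Spry4 (1.15) were the next largest, with adjusted p-values of 0.0104, 0.00585 and 0.0243. Every tumour exceeded every non-tumour in Dusp5, and the other 6 overlapped. The same 7 genes were called without WT non-tumour 2 and without WT tumour 3.

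Of 36 other immediate early genes tested, 7 rose and 1 fell, with a median log2 fold change of 0.27. Over all genes 12.2% were called higher and 7.87% lower. Btg2, an antiproliferative p53 target, was at 136, 130 and 44.2 TPM in WT and 21.3, 72.7 and 54.9 TPM in GKO tumours, against 4.79, 15.8 and 3.88 TPM in WT and 3.91, 2.05 and 2.26 TPM in GKO non-tumours. Tumours and non-tumours did not overlap, and the log2 fold change was 3.60 ± 0.40 (SE, n = 6 and 6, limma, adjusted p = 0.000141). Sgk1, a serum- and glucocorticoid-regulated kinase, had 2.31 ± 0.62 (0.0215), Gadd45a, a stress sensor, 1.77 ± 0.44 (0.0149), and Ccn2, a matricellular YAP target, 1.54 ± 0.31 (0.00575), all by limma. The gene that fell was Nfkbia, the NF-kB inhibitor, named here after its value was seen, with a log2 fold change of -1.03 ± 0.18 (limma, adjusted p = 0.0023). Of the 36 genes, 22 had a log2 fold change above 0. Without WT non-tumour 2 the list had 8 higher and 2 lower, where 17.1% and 9.73% of all genes were called, and without WT tumour 3 it had 9 higher and 1 lower, against 14.0% and 7.61%.

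Other AP-1 and ATF genes split as well, with 3 of 9 tested higher and 1 lower, against the same 12.2% and 7.87%. Maff (1.62), Mafk (0.96) and Atf4 (0.64) rose, and Mafg fell by 0.87 on the log2 scale. Of the 5 receptor and ligand genes of the EGF family tested, 2 rose, the ligands Hbegf (1.21 ± 0.34, limma, adjusted p = 0.0262) and Btc (0.99 ± 0.22, 0.0102). Hbegf reached 11.9, 6.80 and 3.23 TPM in the GKO tumours. Its WT tumours had 1.68, 1.18 and 2.15 TPM, against 0.418 to 1.55 TPM in the non-tumours. Of the 15 kinases and factors upstream of the members, 3 rose by modest amounts, Elk3 (0.80), Mapk3 (0.74) and Srf (0.40). Those 3 encode a ternary complex factor, ERK1 and the serum response factor.

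Around Myc, 2 of 12 partners and antagonists rose and 1 fell, shares near the 12.2% and 7.87% of all genes. Mycl, a Myc family member, stood at 5.18, 5.03 and 6.82 TPM in WT and 5.90, 3.30 and 14.8 TPM in GKO tumours and at 0.091 to 1.80 TPM in non-tumours, a log2 fold change of 1.85 ± 0.30 (SE, n = 6 and 6, limma, adjusted p = 0.00171). Mxd3 rose by 1.52 ± 0.32 (limma, adjusted p = 0.00715). Mlxipl, which encodes the glucose-sensing factor ChREBP, had a log2 fold change of -1.26 ± 0.33 (limma, adjusted p = 0.0205). A list of Myc target genes was drawn up for ribosome synthesis, with enzymes of polyamine synthesis among them. Of its 23 genes tested 1 rose, where 12.2% of all genes were called higher, and the median was 0.28. The gene was Odc1, an enzyme of polyamine synthesis (1.41 ± 0.39, limma, adjusted p = 0.0241). Without WT non-tumour 2 the count was 6 (Nolc1, Bysl, Srm, Odc1, Grwd1 and Nip7), against 17.1% of all genes higher, and without WT tumour 3 it was 2 (Odc1 and Srm). Leaving out WT tumour 3 also raised the Myc partners and antagonists that rose from 2 to 4. The heat shock list had 1 of 10 higher, Hspa8 (0.75, limma, adjusted p = 0.0306), and none of the 12 clock genes passed. The most abundant clock gene was Dbp, with a mean of 74.7 TPM over the 18 samples.

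**Figure D5:**
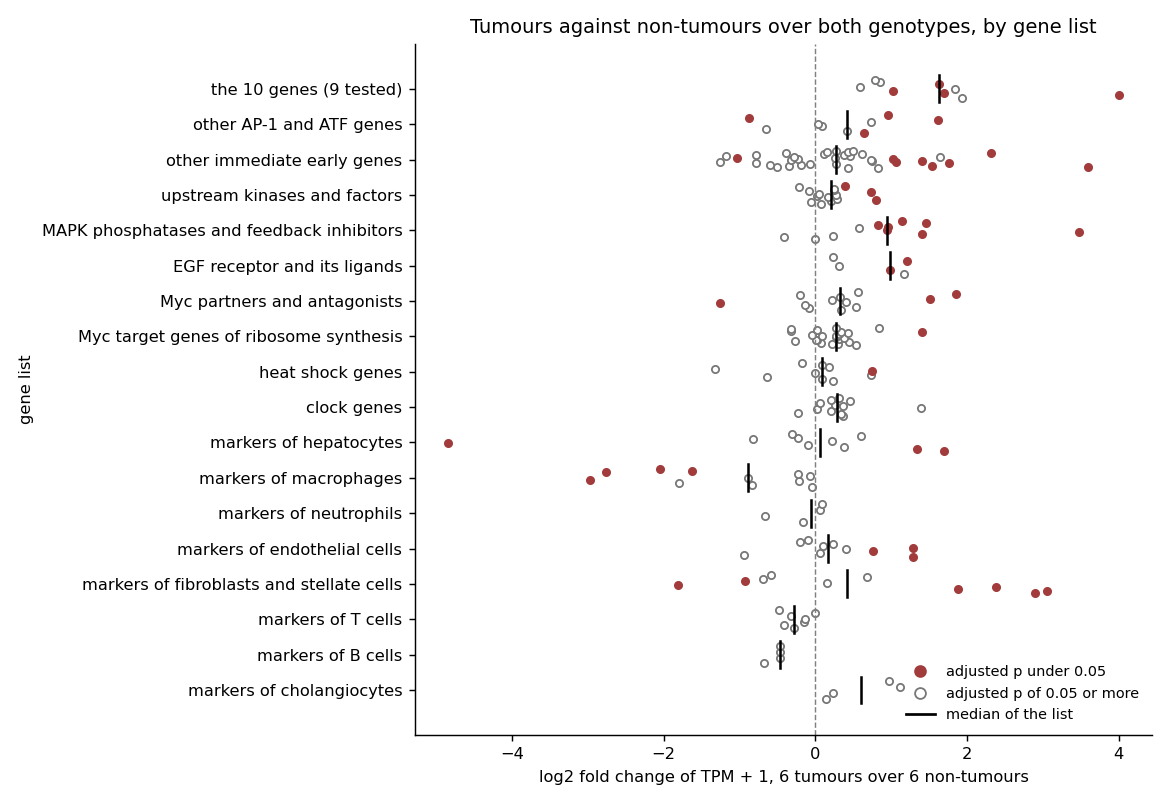
Log2 fold change of TPM + 1 of 6 tumours over 6 non-tumours (horizontal axis) for each gene tested of 18 lists (rows); filled points have an adjusted p under 0.05 by limma and black lines are list medians. The 9 members and the MAPK feedback inhibitors have medians of 1.63 and 0.95, and the macrophage markers lie at or below 0, with a median of -0.89.

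Markers of other cell types moved with the tumour comparison, in which 12.2% of all genes were called higher and 7.87% lower. Of 11 macrophage markers tested 4 fell (Clec4f, Marco, Vsig4 and Timd4, by 2.97, 2.76, 2.05 and 1.62 on the log2 scale) and 0 rose, and Kupffer cells are marked by all 4. Without WT non-tumour 2 there were 6 that fell, Csf1r and Cd5l being added, where 9.73% of all genes did. The most abundant of the list was C1qa, with a mean of 112 TPM. Of 10 fibroblast and stellate cell markers, Col1a1, Acta2, Col3a1 and Col1a2 rose and Dcn and Lrat fell, with summed levels of 80.8, 98.8 and 54.5 TPM in WT and 119, 193 and 99.8 TPM in GKO tumours. Endothelial markers had 3 of 10 higher (Cdh5, Pecam1 and Kdr). Hepatocyte markers, which define liver tissue, were abundant in every sample, with a mean of 58679 TPM for Alb. Alb and Apoa1 rose while Cyp2e1 fell by 4.84 on the log2 scale. None of the tested markers of cholangiocytes (4), neutrophils (4), T cells (7) or B cells (4) passed, with median log2 fold changes of 0.60, -0.05, -0.27 and -0.47. Without WT non-tumour 2, genes that fell included Cd79b of the B cell and Retnlg of the neutrophil markers. Of the cholangiocyte list, Spp1, which encodes osteopontin and is not made by these cells alone, was at 934 and 536 TPM in GKO tumours 2 and 3 and at most 81.9 TPM elsewhere, and the other 6 genes together summed to between 2.79 and 26.6 TPM in every sample. The part of these cell types in the members' changes was not tested.

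The genes whose pattern was most like that of 3 members were taken by Pearson's r of log2(TPM + 1) over the 18 samples, as a description, since all points share the group structure and the tissue. For Fos they were Fkbp10 (0.91), Itga3 (0.91), Cxcl17 (0.90), S100g (0.88) and Col1a2 (0.87). Those most like Egr1 were 1810055G02Rik (0.94), Unc5b (0.93), Fam110c (0.93), Rhoc (0.93) and Alb (0.93). Around Myc they were Patj (0.91), 9530034E10Rik (0.89), Micu2 (0.89), Nudcd2 (0.89) and Eif4a1 (0.88).

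With the 6 group means taken out, other genes came first. Fos was then most like Zmat3 (0.89), Ccdc134 (0.88), Epn2 (0.85), Bin1 (0.84) and Tsen54 (0.84). The nearest to Egr1 were Dnajc12 (0.76), Ahsa2 (0.75), Snord42b (0.72), Glud1 (0.71) and Ccdc6 (0.71), a looser likeness than that of Fos or Myc. For Myc, Rfx5 (0.91), Gpx4 (0.90), Nfkbib (0.89), Brms1 (0.88) and Cct7 (0.88) came first. The 18 deviations include WT non-tumour 2, and genes are not independent of each other.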

How the data were processed

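Total RNA of 18 mouse liver samples was sequenced and deposited as 1 table. The authors deposited TPM values for 54838 genes. Per the submitters' processing notes, STAR 2.7.3a, featureCounts 2.0.0 and mm10 were used. The annotation, the strand setting and the way TPM was computed are not given in the sources used here. TPM times exonic length in GENCODE M21 (54809 genes matched) gave whole reads within 0.02 for at least 97.95% of values up to 30 reads. No 2 samples were identical.

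Genes averaging 0.5 TPM or more over the compared samples were tested with limma 3.58.1 (R 4.3.3) on log2(TPM + 1), with Benjamini-Hochberg adjustment over all genes tested and a threshold of 0.05. Fold changes are on this scale and understate those of low genes. An exact permutation test of 3 against 3 cannot go below p = 0.1. The fit was also run on simulated GKO and WT tumours with large known changes in genes with many reads. That setting does not cover scarce or widely spread members such as Fos and Atf3. The members and the 17 other lists (8 of cell markers) were chosen with earlier results of these data known. By the rule for named genes, a member's fold change is given where groups did not overlap or the test passed. Others are given where they end a stated range, have a confidence interval printed, missed the threshold, or were decided by 1 sample. From a list at most 4 passing genes are named, those of largest change, or the most abundant gene, and for likeness the 5 genes of highest r among those averaging 1 TPM or more. Alternatives were a pseudocount of 0.1, no filter, a limit of 5 TPM on the mean, median centring, all 18 samples in 1 fit, a replicate block, voom on recovered reads, leaving out each sample, and averaging WT tumours 1 and 2. The counts of the other lists without WT non-tumour 2 or WT tumour 3 and the order of group means with each sample left out were added after seeing the data.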

Additional observations from a re-analysis of the deposited data

Results flagged for a closer look

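Atf3 stood out in 2 of the 50 pairs of effects looked at (10 members, 5 pairs of contrasts). Its groups did not overlap in either setting, and the direction was opposite in the 2 settings. The genotype effect was 0.43 in normal livers (GKO higher) and -1.61 in non-tumours (GKO lower), which are 2.0358 apart on the log2 scale. Non-tumours against normal livers gave 1.54 in WT and -0.49 in GKO mice, 2.0357 apart. Both values are the same contrast of the same 12 samples, apart from rounding, so they are a single result, and it was not tested. Without WT non-tumour 2 the non-tumour effect was -0.21 and the WT effect 0.15, so that most of the size came from this sample.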

How the results depend on the processing

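No fold change of a member that passed, or whose groups did not overlap, reversed under the alternatives. Other members' values reversed 42 times over all comparisons and alternatives, 0 of them called, and 8 of these were between tumours and non-tumours (Jun or Myc in WT mice). Among the 42, Fos (0.57 to -0.05), Ier2 (0.15 to -0.22) and Klf6 (-0.16 to 0.02) changed sign in GKO against WT tumours without WT tumour 3. Jun (-0.27 to 0.37), Junb (0.08 to -0.02) and Klf6 (-0.56 to 0.24) did so in non-tumours without WT non-tumour 2, as did the interaction of Klf6 (0.39 to -0.40). For GKO tumours against non-tumours, 6 members were called (11.7% of all genes), and 2 without a filter (2.26%), 3 with median centring (12.5%), 3 by voom (12.7%) and 2 to 4 with 1 sample left out (1.62% to 11.1%). For WT tumours against non-tumours, 0 members were called (4.23%), and 4 with all 18 samples in 1 fit (11.8%) and 0 to 5 with 1 sample left out. Over both genotypes 4 were called, and 4 to 7 with 1 sample left out. With a limit of 5 TPM on the mean 3 were called, because Fos averaged less and was not tested. A pseudocount of 0.1 gave 5 (Atf3 added). All 18 samples in 1 fit gave 6 (Atf3 and Ier3 added), with 27.2% of all genes called, against 20.1%. The other comparisons called 0 members under every alternative run. Apart from the limit that removed Fos, the cause of these changes was not tested. Without a filter 26005 genes were tested for GKO tumours in place of 14092. Same-numbered samples had correlations of deviations between -0.299 and 0.245, never over 0.1 in all 3 pairs, so the numbers were not taken to pair the samples. As a hint from the data, not the design, each GKO tumour correlated best with the GKO non-tumour of its own number (0.119, 0.069 and 0.041), and GKO with WT tumours had 0.0998, 0.116 and 0.194. With a replicate block 4 members were called for GKO tumours (Fos, Egr1, Atf3 and Myc) and 5 over both genotypes (Atf3 added), and 0 elsewhere. Of called genes, 66.1% were higher in GKO tumours, 44.0% with median centring and 50.2% by voom, and over both genotypes 60.8%, 44.5% and 45.6%. Depth limits Fosb (0 to 19 reads) and Fos (as few as 1 read) most.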
